A study of Mus musculus with 12 samples.

Results

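The genes described here encode secreted factors that act on blood vessels and the oxygen-regulated transcription factors that act upstream of several of them. They are the vascular endothelial growth factors *Vegfa*, *Vegfb*, *Vegfc* and *Vegfd*, placental growth factor (*Pgf*), the angiopoietins *Angpt1* and *Angpt2*, apelin (*Apln*), and the alpha subunits of hypoxia-inducible factor (HIF), *Hif1a* and *Epas1*. They were chosen by name, and all 10 were found by their NCBI Gene IDs among the 27179 mouse genes counted. All 10 passed the expression filter, which left 15502 genes for testing.

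The data are RNA-seq counts of 12 tibialis anterior (TA) muscles from 6 wild-type male C57BL/6N mice, which arrived at 6 to 8 weeks of age and were used within 2 weeks. In each mouse, 1 TA received 10 μg of empty pcDNA3 plasmid (Control muscles) and the other TA received 10 μg of pcDNA3 carrying full-length *FRAIL1*, a human long noncoding RNA, under the cytomegalovirus promoter (*FRAIL1* muscles). Both TAs were injected with hyaluronidase before the plasmid and electroporated after it, and both TAs were taken on day 7. The comparison asks how mRNA levels in mouse muscle differ when this human transcript is expressed. The promoter is not specific to a cell type, and *FRAIL1* itself is not among the mouse genes counted.

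VEGFA is the main growth factor for capillary endothelium and is made in large amounts by muscle fibers, whose oxygen supply depends on a dense capillary bed. It signals through the receptor KDR, while FLT1 binds VEGFA, VEGFB and PGF, and FLT4 binds VEGFC and VEGFD, the lymphatic growth factors. ANGPT1 activates the endothelial receptor TEK and stabilises vessels, ANGPT2 opposes it in many settings, and apelin acts on the receptor APLNR. When oxygen is low, HIF alpha subunits escape hydroxylation by the EGLN enzymes, pair with ARNT and bind hypoxia response elements of genes such as *Vegfa*.

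Total counts ranged from 45018389 to 59309210 in Control and from 44848322 to 60527385 in *FRAIL1* muscles. Levels are given as CPM, the count relative to the library total, scaled with TMM factors, which correct for differences in composition between libraries. Groups were compared with edgeR's quasi-likelihood test, and p-values were adjusted over all genes tested, with a threshold of 0.05. *FRAIL1* muscle 5 stood apart from the other muscles: it held the lowest of the 12 levels for 4 of the 10 genes and the highest for 2. Values are therefore also given without it. Markers of mature muscle fibers were abundant in both groups, with *Myh4* at 45865 ± 4064 CPM (SD, n = 6) in Control and 34080.0 ± 6844 (SD, n = 6) in *FRAIL1* muscles. Because whole muscle was extracted, fewer cells of a type and less RNA per cell cannot be told apart.

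None of the 10 genes passed the threshold (0 of 10 by the quasi-likelihood test of edgeR, Benjamini-Hochberg adjusted), while 6.28% of all genes tested did. When the mouse was included as a block, *Vegfa* passed (1 of 10, lower in *FRAIL1* muscles) against 14.1% of all genes. At an unadjusted p-value under 0.05 there were 4 of the 10, *Vegfa*, *Angpt2*, *Apln* and *Epas1*, against 27.7% of all genes. For 0 of the 10 genes did the 6 *FRAIL1* values lie wholly above or below the 6 Control values, against 4.88% of all genes. In 3 of the 10 genes the difference had the same direction in 6 of 6 mice, against 23.2% of all genes: *Vegfa* and *Epas1* were lower and *Apln* was higher. These shares lay near those of all genes tested, so the counts alone do not set the 10 genes apart. The median log2 fold change was -0.070 over the 10 genes and 0.0096 over all genes tested. Other tools called 1 of the 10 (DESeq2 and limma voom, *Vegfa* in each) or 3 (DESeq2 with the block, *Vegfa*, *Apln* and *Epas1*). These fits also called more genes in all: 2232 with DESeq2, 1836 with limma voom and 2898 with DESeq2 and the block, against 974 in edgeR's test without the block.

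**Figure D1:**
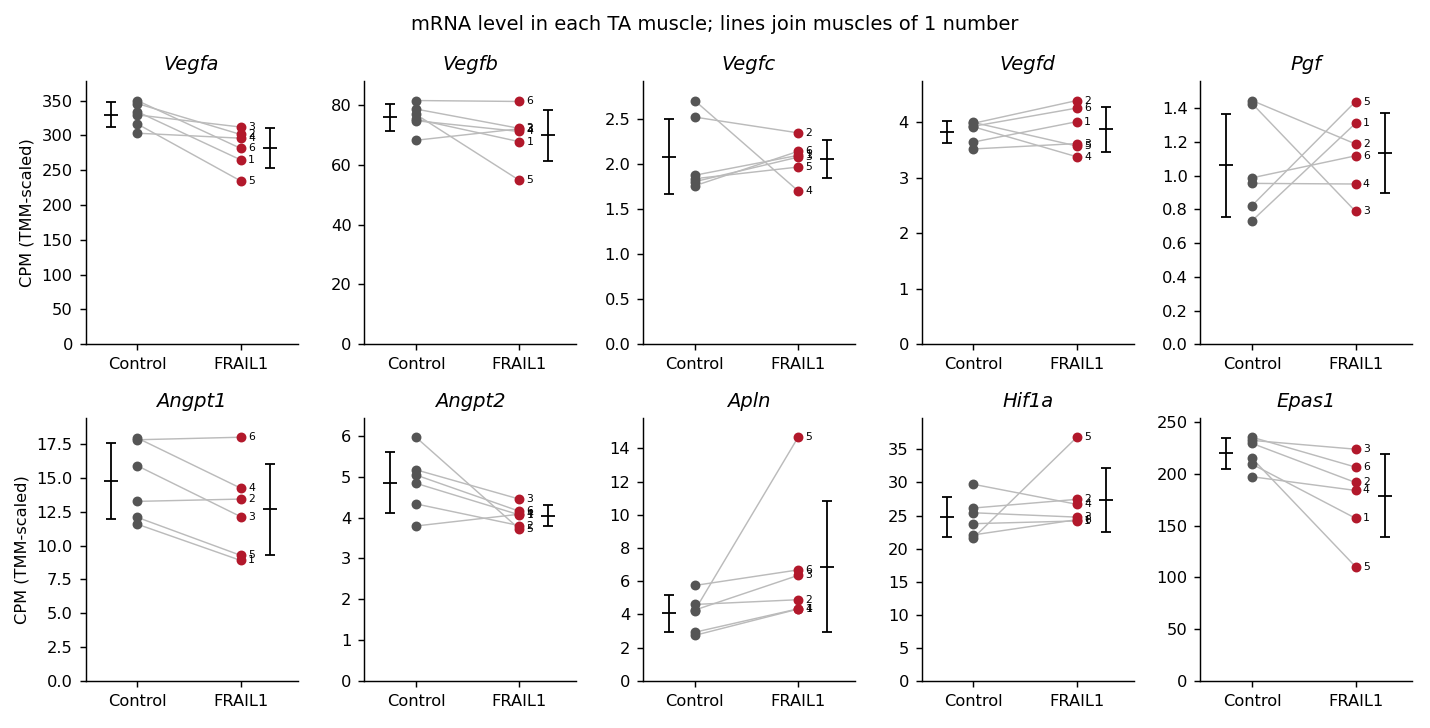
Level of each of the 10 genes (TMM-scaled CPM, axes from 0) in the 6 Control (grey) and 6 FRAIL1 (red) muscles, with lines joining muscles of 1 number, that number beside each FRAIL1 point, and the mean ± SD of each group beside the points. The groups overlap for every gene, and FRAIL1 muscle 5 has the highest Apln (14.7 CPM) and Hif1a (36.8 CPM) and the lowest Vegfa (234 CPM) and Epas1 (110.4 CPM).

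Sequences before a transcription start of 3 of these genes are shown. *Vegfa* and *Apln* were taken because each had 1 direction in 6 of 6 mice, and opposite ones. *Hif1a* was taken because it encodes the subunit that binds hypoxia response elements. Each is the window of 250 bases before a RefSeq transcription start on GRCm38.p6, read in the direction of transcription. The window of *Vegfa* is chr17:46032378-46032627 (minus strand), that of *Apln* is chrX:48034854-48035103 (minus strand) and that of *Hif1a* is chr12:73907617-73907866 (plus strand). The *Hif1a* window lies inside the span of the gene (chr12:73901324-73947554), before an internal start and not before the first base of that span. Capitals mark the core letters of the hypoxia response element, searched as ACGTG and GCGTG on both strands.
Vegfa: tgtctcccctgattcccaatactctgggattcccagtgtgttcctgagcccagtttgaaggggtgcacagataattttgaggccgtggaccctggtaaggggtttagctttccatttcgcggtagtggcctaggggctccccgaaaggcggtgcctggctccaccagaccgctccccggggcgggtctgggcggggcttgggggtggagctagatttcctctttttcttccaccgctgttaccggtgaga
Apln: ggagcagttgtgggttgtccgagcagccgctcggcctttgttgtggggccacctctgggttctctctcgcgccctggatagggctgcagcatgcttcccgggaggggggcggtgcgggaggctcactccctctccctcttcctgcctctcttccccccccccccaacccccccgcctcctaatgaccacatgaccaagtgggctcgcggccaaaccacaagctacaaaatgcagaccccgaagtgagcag
Hif1a: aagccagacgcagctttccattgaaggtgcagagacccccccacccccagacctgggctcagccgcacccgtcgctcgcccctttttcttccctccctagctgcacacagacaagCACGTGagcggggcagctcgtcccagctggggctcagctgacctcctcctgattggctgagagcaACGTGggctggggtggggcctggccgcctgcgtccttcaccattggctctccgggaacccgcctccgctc
No match was found in the *Vegfa* and *Apln* windows shown. Sequence more than 250 bases before a start was not searched, so this does not mean that either gene lacks the element. The *Hif1a* window held 3 matches of ACGTG, of which 2 share the run CACGTG, which reads the same on both strands. Windows were taken for 7 of the 10 genes, *Vegfa*, *Vegfb*, *Vegfc*, *Vegfd*, *Pgf*, *Apln* and *Hif1a*, and not for *Angpt1*, *Angpt2* and *Epas1*. With 2 starts each for *Vegfa* and *Pgf* there were 9 windows, of which 4 held a match (44.4%), 1 each for *Vegfa* (its second start), *Vegfb*, *Pgf* and *Hif1a*. The second *Vegfa* window and both *Pgf* windows lie inside the spans of their genes, as the *Hif1a* window does. Of the windows with a match, only that of *Vegfb* lies before the first base of its gene, so the share does not describe promoters alone. Among 32851 windows of the same length over all genes, 16.6% held ACGTG, 28.2% GCGTG and 38.6% either. A match describes the letters only and says nothing about binding in these muscles.

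*Vegfa* (chr17:46016993-46032377, minus strand) was the most abundant of the ligands. Control muscles 1 to 6 held 334, 346, 329, 303, 317 and 350.1 CPM, and *FRAIL1* muscles 1 to 6 held 265, 301, 312, 296, 234 and 281 CPM. Thus 5 of the 6 *FRAIL1* muscles lay below the lowest Control muscle, and *FRAIL1* muscle 3 lay inside the Control range. The mean was 329.9 ± 17.7 CPM in Control and 282 ± 28.3 in *FRAIL1* muscles (SD, n = 6 each). The log2 fold change was -0.23 (SE 0.07, 95% interval -0.38 to -0.07), with an adjusted p of 0.0674 in edgeR's test and 0.0405 with the mouse as a block. Within mice, the log2 difference ran from -0.43 in mouse 5 to -0.03 in mouse 4, so the size varied widely while the sign did not. Without *FRAIL1* muscle 5 the log2 fold change was -0.18 (adjusted p = 0.0718), and without *FRAIL1* muscle 3 it was -0.26 and passed the threshold (adjusted p = 0.0342). Leaving out muscle 3 gave 2110 called genes in all, against 974 with every muscle, so a call gained that way is not particular to *Vegfa*.

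*Vegfb* (chr19:6982472-6987651, minus strand), a ligand of FLT1 that is also made by muscle fibers, ranged from 68.2 through a median of 76.0 to 81.5 CPM in Control muscles and from 54.8 through 71.6 to 81.1 CPM in *FRAIL1* muscles. The groups overlapped over most of their range, and 2 *FRAIL1* muscles lay below every Control muscle. The log2 fold change of -0.12 (SE 0.08) did not pass the test (adjusted p = 0.340, edgeR), although *Vegfb* was lower in 5 of 6 mice, and it was -0.06 without *FRAIL1* muscle 5 (adjusted p = 0.601). The ratio of *Vegfa* to *Vegfb* CPM was 4.35 in Control and 4.04 in *FRAIL1* muscles (geometric means), with ranges of 4.06 to 4.83 and 3.47 to 4.33. That difference of -0.11 on the log2 scale was within the spread (p = 0.119, adjusted over 3 ratios 0.357, exact two-sided permutation test, n = 6 muscles per group, smallest possible p 0.00216). The exact test that exchanges the muscles within each mouse gave an adjusted p of 0.469.

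The other ligands of the family were present at a few CPM. *Vegfc* (chr8:54077532-54186454, plus strand) ranged from 1.76 to 2.7 CPM (median 1.85) in Control and from 1.70 to 2.34 (median 2.08) in *FRAIL1* muscles, with a log2 fold change of -0.02 (SE 0.15, 95% interval -0.34 to 0.30, adjusted p = 0.945, edgeR). *Vegfd* (chrX:164373522-164402650, plus strand) ranged from 3.52 to 4.0 CPM (median 3.92) in Control and from 3.38 to 4.39 (median 3.81) in *FRAIL1* muscles, with a log2 fold change of 0.02 (SE 0.10, 95% interval -0.20 to 0.23, adjusted p = 0.941). Neither lymphatic ligand differed beyond its spread, and the sign of each depended on single muscles. *Pgf* (chr12:85166637-85177785, minus strand), which binds FLT1 and not KDR, ranged from 0.733 to 1.45 CPM (median 0.971) in Control and from 0.788 to 1.44 (median 1.15) in *FRAIL1* muscles. It had a log2 fold change of 0.09 (SE 0.22, 95% interval -0.37 to 0.55, adjusted p = 0.825), and it was higher in 3 mice and lower in 3. Without *FRAIL1* muscle 5 the fold change was 0.0061 for *Pgf*, -0.01 for *Vegfc* and 0.04 for *Vegfd*. The intervals of *Vegfc* and *Pgf* are wide, so differences of the size seen for *Vegfa* could not be detected for them.

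*Angpt1* (chr15:42424667-42676977, minus strand), the vessel-stabilising angiopoietin, ranged from 11.6 through a median of 14.6 to 17.9 CPM in Control and from 8.90 through 12.8 to 18.0 CPM in *FRAIL1* muscles. The groups overlapped, with 2 *FRAIL1* muscles below every Control muscle and 1 above. With a log2 fold change of -0.22 (SE 0.17) it did not pass, with an adjusted p of 0.425 in edgeR's test and 0.0665 with the mouse as a block, and *Angpt1* was lower in 4 of 6 mice. Without *FRAIL1* muscle 5 the fold change was -0.15 (adjusted p = 0.677). Its log2 difference within the mouse lay between -0.39 and -0.33 in those 4 mice and was 0.02 in the other two. An antisense gene, Gm17473, overlaps 14.2% of its exons, so reads of that stretch could come from either gene if strand was not counted.

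*Angpt2* (chr8:18690263-18741562, minus strand), the antagonist of *Angpt1* in quiescent vessels, ranged from 3.80 through 4.94 to 5.97 CPM in Control and from 3.72 through 4.08 to 4.45 CPM in *FRAIL1* muscles. The *FRAIL1* values lay in the lower part of the Control range, with 1 of them below it. The log2 fold change was -0.26 (SE 0.11, 95% interval -0.50 to -0.02), and the adjusted p was 0.144 in edgeR's test and 0.152 with the block. *Angpt2* was lower in 5 of 6 mice, the exception being mouse 4, and its fold change was -0.24 without *FRAIL1* muscle 5 (adjusted p = 0.238). The ratio of *Angpt2* to *Angpt1* CPM was 0.331 in Control and 0.329 in *FRAIL1* muscles (geometric means, p = 0.968, exact two-sided permutation test), with ranges of 0.212 to 0.494 and 0.231 to 0.457.

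*Apln* (chrX:48025146-48034853, minus strand), which encodes the peptide ligand of APLNR, was the only ligand with a higher level in 6 of 6 mice. Control muscles 1 to 6 held 2.93, 4.60, 4.26, 2.74, 4.23 and 5.75 CPM, and *FRAIL1* muscles 1 to 6 held 4.34, 4.89, 6.36, 4.33, 14.7 and 6.69 CPM. *FRAIL1* muscle 5 was far above all others, 3 *FRAIL1* muscles lay above the highest Control muscle, and the groups overlapped. The mean was 4.09 ± 1.12 CPM in Control and 6.88 ± 3.95 in *FRAIL1* muscles (SD, n = 6 each). The log2 fold change was 0.75 (SE 0.30, 95% interval 0.10 to 1.41), with an adjusted p of 0.132 in edgeR's test and 0.0565 with the block. Without *FRAIL1* muscle 5 it was 0.38 (adjusted p = 0.249), and without both muscles numbered 5 and with the block it was 0.41 and passed the threshold (adjusted p = 0.0295). The size of the *Apln* difference therefore rested on muscle 5, and its direction did not.

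*Hif1a* (chr12:73901324-73947554, plus strand) ranged from 21.6 through a median of 24.6 to 29.7 CPM in Control and from 24.2 through 25.7 to 36.8 CPM in *FRAIL1* muscles. All *FRAIL1* muscles but muscle 5 lay within the Control range. Between the groups the log2 fold change was 0.14 (SE 0.11, adjusted p = 0.400, edgeR), and it was 0.04 without *FRAIL1* muscle 5 (adjusted p = 0.834). Other genes overlap 8.11% of its exons, in part antisense. HIF-1alpha is regulated mainly through the stability of the protein, which was not measured here.

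*Epas1* (chr17:86753864-86833410, plus strand) encodes HIF-2alpha, which is abundant in endothelium. Control muscles 1 to 6 held 209.6, 229.7, 233, 197, 215 and 236 CPM, and *FRAIL1* muscles 1 to 6 held 157, 192, 224, 184, 110.4 and 207 CPM. Of the *FRAIL1* muscles, 4 lay below the lowest Control muscle and 2, numbers 3 and 6, lay inside the Control range. The mean was 220.0 ± 15.1 CPM in Control and 179 ± 40.4 in *FRAIL1* muscles (SD, n = 6 each). The log2 fold change was -0.30 (SE 0.13, 95% interval -0.58 to -0.01), with an adjusted p of 0.162 in edgeR's test and 0.0668 with the block. Without *FRAIL1* muscle 5 it was -0.19 (adjusted p = 0.169), and without both muscles numbered 5 and with the block it was -0.21 (adjusted p = 0.0199).

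**Figure D2:**
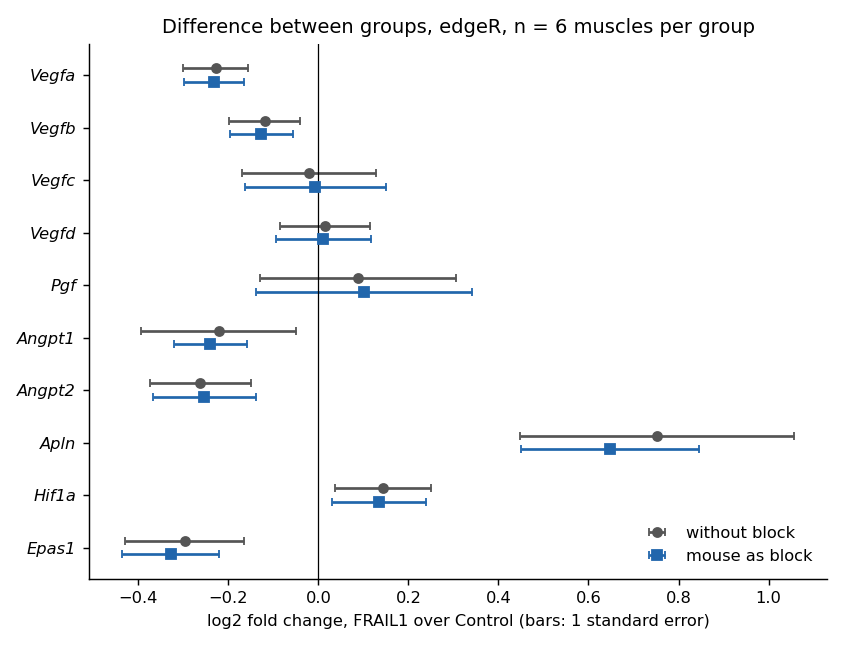
Log2 fold change of FRAIL1 over Control muscles for the 10 genes with bars of 1 standard error, from edgeR without (circles) and with (squares) the mouse as a block. Apln lies farthest from 0 (0.75 without the block), the estimates with and without the block lie close together, and the standard error of Angpt1 is 0.17 without and 0.08 with the block.

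**Figure D3:**
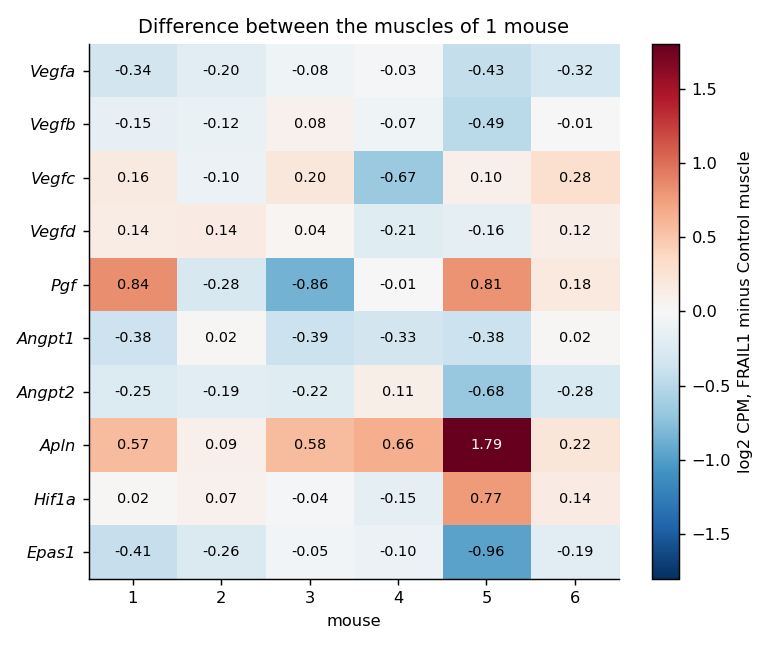
Log2 difference in CPM between the FRAIL1 and the Control muscle of each of 6 mice (columns) for the 10 genes (rows), red where higher and blue where lower in the FRAIL1 muscle. Vegfa and Epas1 are below 0 and Apln above 0 in all 6 columns, and mouse 5 holds the largest differences of Apln (1.79), Epas1 (-0.96) and Hif1a (0.77).

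The 10 genes spanned a wide range of levels when counts were divided by exon length. In Control muscles *Vegfa* stood at 77.0 ± 4.14 CPM per kb of exons (SD, n = 6), *Vegfb* at 47.2 ± 2.79 and *Epas1* at 39.4 ± 2.7. The ranges of these 3 genes did not overlap in Control muscles, while in *FRAIL1* muscles those of *Vegfb* (43.5 ± 5.37 CPM per kb) and *Epas1* (32.0 ± 7.23) did. *Hif1a* followed at 4.20 ± 0.509 CPM per kb and *Angpt1* at 2.84 ± 0.545. *Vegfd* (1.59 ± 0.083), *Angpt2* (1.32 ± 0.202) and *Apln* (1.30 ± 0.354) overlapped and could not be ordered, and the range of *Vegfc* (0.849 ± 0.170) overlapped those of *Angpt2* and *Apln*. *Pgf* was lowest, at 0.366 ± 0.105 CPM per kb, below every Control value of *Vegfc*. In *FRAIL1* muscles *Apln* stood at 2.18 ± 1.25 CPM per kb, above the mean of *Vegfd* (1.61 ± 0.170), with overlapping ranges.

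**Figure D4:**
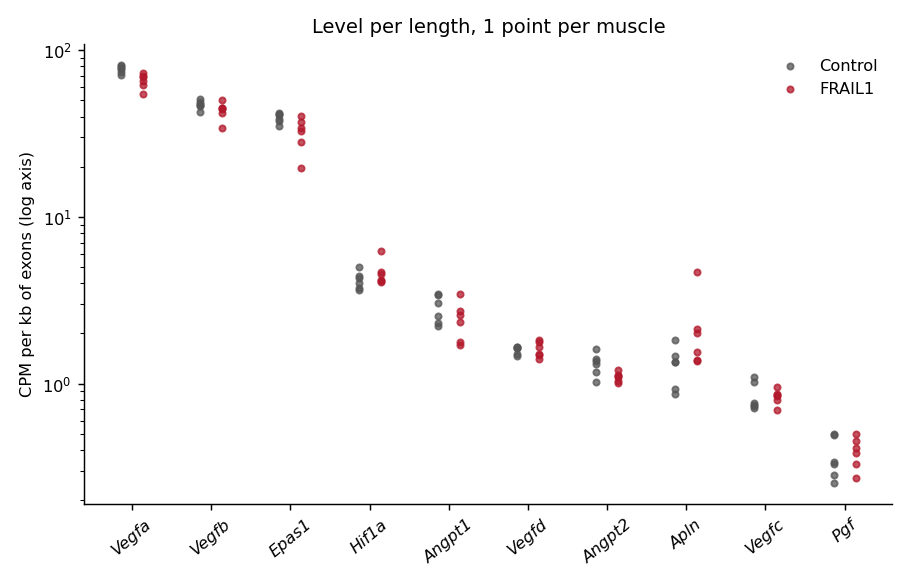
Level of the 10 genes in CPM per kb of exons (log axis), ordered by the Control mean, with 1 point for each Control (grey) and FRAIL1 (red) muscle. Vegfa, Vegfb and Epas1 stand above the other 7 genes in both groups, and Vegfd, Angpt2 and Apln overlap in Control muscles.

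Among the receptors, 2 passed the test, and both were lower in *FRAIL1* muscles. *Flt1*, the receptor shared by VEGFA, VEGFB and PGF, was 51.1 ± 2.66 CPM in Control and 36.7 ± 7.33 in *FRAIL1* muscles (SD, n = 6 each), with a log2 fold change of -0.48 (SE 0.12, adjusted p = 0.0326, edgeR) and no overlap between the groups. *Tek*, the angiopoietin receptor, was 31.2 ± 0.828 CPM in Control and 23.5 ± 3.71 in *FRAIL1* muscles (log2 fold change -0.41, SE 0.09, adjusted p = 0.0186), also without overlap. *Kdr*, the main signaling receptor of VEGFA, had a log2 fold change of -0.25 (SE 0.08), with an adjusted p of 0.0743 and of 0.0264 with the block, and it was lower in 6 of 6 mice. The call of *Tek* held when any single muscle was left out, whereas that of *Flt1* was lost without Control muscle 1, 2, 3, 4 or 6 or *FRAIL1* muscle 1 or 6 (adjusted p up to 0.0704). *Kdr* passed without *FRAIL1* muscle 3 (adjusted p = 0.0360).

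*Flt4*, *Nrp1*, *Nrp2* and *Tie1* did not pass (log2 fold changes -0.22, -0.04, 0.05 and -0.17). The apelin receptor *Aplnr* was 26.4 ± 3.62 CPM in Control and 32.9 ± 16.2 in *FRAIL1* muscles, higher in 3 mice and lower in 3 (log2 fold change 0.31, adjusted p = 0.422, edgeR). *FRAIL1* muscle 5 held 65.6 CPM of *Aplnr*, and without it the *FRAIL1* mean was 26.3 CPM and the log2 fold change -0.0083. The ratio of *Vegfa* to *Kdr* was 3.73 in Control and 3.78 in *FRAIL1* muscles, a log2 difference of 0.02 (p = 0.775, adjusted 0.968, exact two-sided permutation test), with ranges of 3.42 to 4.44 and 3.53 to 4.11. Of 5 other secreted factors listed, 3 were tested, 0 passed (edgeR) and 2 had an unadjusted p-value under 0.05. Once the mouse was included, 1 passed and was higher (*Angptl4*, log2 fold change 0.69 and adjusted p = 0.0290, both with the block). Another passed and was lower (*Egfl7*, -0.22, 0.0355 with the block). *Angptl4* also passed without the block when *FRAIL1* muscle 3 was left out (adjusted p = 0.0194).

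**Figure D5:**
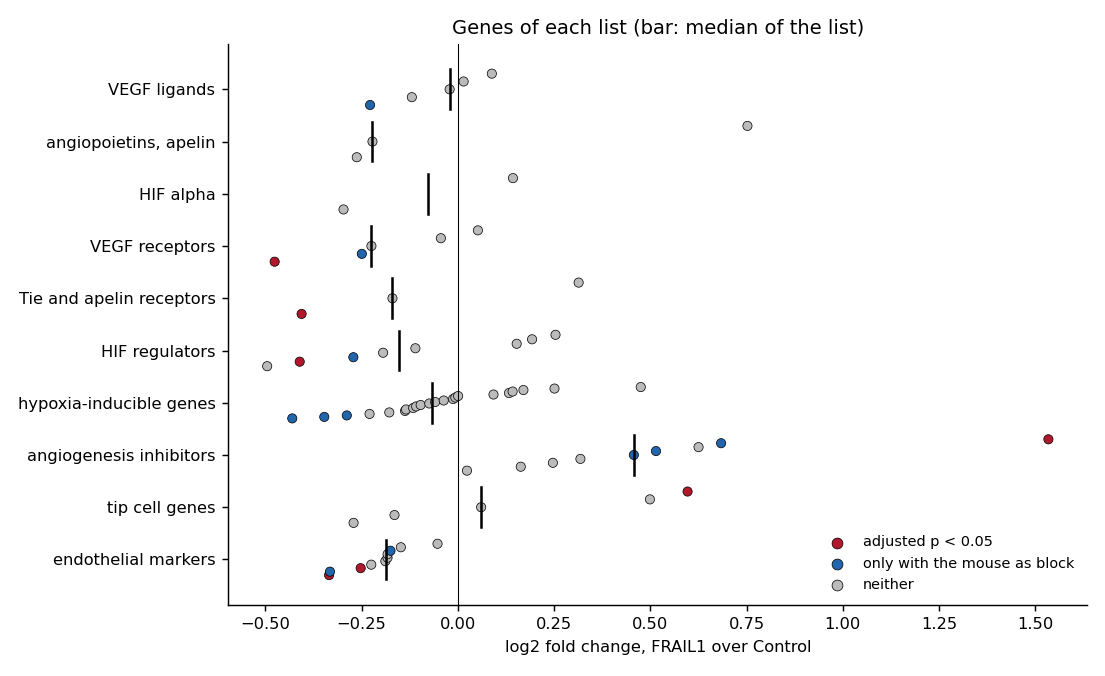
Log2 fold change of FRAIL1 over Control muscles for the tested genes of 10 lists, with a bar at each list's median; red marks an adjusted p under 0.05 in edgeR, blue only with the mouse as a block, grey neither. The 9 angiogenesis inhibitors all lie above 0, with Vash2 farthest (1.53), and the 10 endothelial markers all lie below 0.

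Levels of cell type markers are given beside those of the 10 genes. All 10 of 10 endothelial markers were lower (median log2 fold change -0.19), of which *Vwf* and *Ptprb* passed (adjusted p = 0.0481 each, edgeR) and *Eng* and *Sox17* also with the block (0.0475 and 0.0259). Their summed level was 464 to 536 CPM in Control and 376 to 474 CPM in *FRAIL1* muscles. Without *FRAIL1* muscle 5 the median was -0.21, *Pecam1* passed (adjusted p = 0.0309, edgeR), and *Vwf* and *Ptprb* did not (0.0518 and 0.0718). Of 6 fiber markers 4 were lower, *Ckm* with an adjusted p of 0.0482 (edgeR). *Myh4* had an adjusted p of 0.0328 with the block, and passed without it when *FRAIL1* muscle 2, 3 or 5 was left out. The rest did not pass with or without the block: *Acta1* (log2 fold change -0.14), *Tnnt3* (-0.24), *Myh1* (0.14) and *Mylpf* (0.0048). *Myh1* was higher in 5 of 6 mice. The sum of the fiber markers was lowest in *FRAIL1* muscle 5 at 97800.4 CPM, against 121588 to 145277 CPM in Control muscles.

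All 6 of 6 macrophage markers were higher (median 0.63), 0 passed in edgeR's test, 4 had an unadjusted p-value under 0.05, and *Adgre1* and *Csf1r* passed with the block (adjusted p = 0.0210 and 0.0443). Both also passed without *FRAIL1* muscle 3, and *Adgre1* without *FRAIL1* muscle 2. The 6 markers summed to 73.2 to 113 CPM in Control and 94.4 to 226 CPM in *FRAIL1* muscles. All 6 of 6 fibroblast markers were higher (median 0.59, 0 passed, 4 at an unadjusted p-value under 0.05), and summed to 959 to 1800.4 CPM in Control and 1905 to 4912 CPM in *FRAIL1* muscles, with the highest sum in muscle 5. Without that muscle the median was 0.40 and *Col1a1* passed (adjusted p = 0.0309). *Dcn* and *Cd34* went from log2 fold changes of 0.02 and 0.10 to -0.01 and -0.03 without it. No marker on these lists had a group mean of 0. The part of these cell types in the levels of *Vegfa*, *Apln* and *Epas1* was not tested. When single muscles were left out, *Vwf* and *Ptprb* kept their calls only without *FRAIL1* muscle 2 or 3, and *Ckm* only without *FRAIL1* muscle 2, 3 or 5 (adjusted p otherwise up to 0.0931, 0.0996 and 0.0912).

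Genes that control HIF, and genes that HIF activates, give the setting of *Hif1a* and *Epas1*. Of 8 HIF partners and hydroxylase genes, 1 passed: *Egln1*, the main oxygen-sensing hydroxylase, was 270.5 ± 10.4 CPM in Control and 203 ± 39.4 in *FRAIL1* muscles (log2 fold change -0.41, SE 0.11, adjusted p = 0.0472, edgeR), without overlap. When single muscles were left out, this call was kept only without *FRAIL1* muscle 2, 3 or 5 (adjusted p otherwise up to 0.0965). *Hif1an*, the asparaginyl hydroxylase, passed with the block (log2 fold change with the block -0.28, adjusted p = 0.0248). Without the block it passed when *FRAIL1* muscle 2 or 3 was left out (adjusted p = 0.0335 and 0.0367, edgeR). *Egln2*, *Egln3* and *Arnt* did not pass (log2 fold changes without the block -0.19, 0.15 and -0.11). *Egln1*, *Egln2* and *Hif1an* were lower in 6 of 6 mice, as was *Epas1*. The share with 1 direction in 6 of 6 mice was 23.2% over all genes tested, and a link of these genes to *Epas1* was not tested. Of the rest of the list, named here after their values were seen, *Arnt2* was also lower in 6 of 6 mice (log2 fold change -0.50, adjusted p = 0.0507) and *Vhl*, which marks hydroxylated HIF for degradation, was higher in 6 of 6 (0.19, adjusted p = 0.195).

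Of 22 textbook hypoxia-inducible genes, all tested, 0 passed (edgeR), and the median log2 fold change was -0.07. At an unadjusted p-value under 0.05 there were 7, against 27.7% of all genes tested. Among those under 0.05, *Car9* and *Kdm3a*, named here after their values were seen, were higher (log2 fold changes 0.48 and 0.14). The rest of those under 0.05 were lower. The whole list held 7 genes with a higher and 15 with a lower level. With the block, 3 passed and were lower: *Vldlr*, a lipoprotein receptor (log2 fold change with the block -0.47, adjusted p = 0.0300), *Hk2*, a hexokinase (-0.37, adjusted p = 0.0334), and *Mxi1*, a MYC antagonist (-0.30, adjusted p = 0.0195). The most abundant of the others, the glycolytic genes *Aldoa* and *Ldha* and the transferrin receptor gene *Tfrc*, had log2 fold changes of -0.23, -0.10 and 0.09. In the test without the block, *Vldlr* passed when *FRAIL1* muscle 2 was left out, *Hk2* when *FRAIL1* muscle 2, 3 or 5 was and *Mxi1* when *FRAIL1* muscle 3 was. The coactivator *Ppargc1a* and the receptors *Esrra* and *Esrrg* act upstream of *Vegfa* in muscle. Each was lower in 6 of 6 mice, while 23.2% of all genes tested had 1 direction in 6 of 6. Of the 3, 0 passed (log2 fold changes -0.14, -0.24 and -0.14, adjusted p = 0.312, 0.102 and 0.614, edgeR) and 1 had an unadjusted p-value under 0.05. Without *FRAIL1* muscle 5 the fold changes were -0.10, -0.17 and -0.04. Their part in the level of *Vegfa* was not tested.

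The secreted inhibitors of angiogenesis lay on the other side of 0 from *Vegfa*. All 9 of 9 were higher (median log2 fold change 0.46), of which 1 passed (edgeR) and 4 passed with the block. The list was chosen with earlier results of these data known, so its shared direction is a description and not a test. *Vash2*, a vasohibin, was 3.44 ± 0.553 CPM in Control and 9.97 ± 5.13 in *FRAIL1* muscles (SD, n = 6 each), with a log2 fold change of 1.53 (SE 0.27, adjusted p = 0.0105) and no overlap. Vasohibin 2 has also been described as promoting vessel growth, so its place among inhibitors is not settled. *Thbs2* (log2 fold change without the block 0.68), *Col18a1*, the source of endostatin (0.51), and *Serpinf1* (0.46) passed with the block (adjusted p = 0.0468, 0.0290 and 0.0314) and not in the test without it. *Thbs2* passed that test when Control muscle 6 or *FRAIL1* muscle 2 or 3 was left out, and *Col18a1* when *FRAIL1* muscle 3, 5 or 6 was left out. No omission of a single muscle brought *Serpinf1* past the threshold. *Cxcl14*, *Vash1* and *Thbs1* did not pass (0.02, 0.63 and 0.32). Without *FRAIL1* muscle 5, *Vash1* was at 0.35 and passed (adjusted p = 0.0244), and *Col18a1* was at 0.34 (adjusted p = 0.0213). The median was 0.32 without *FRAIL1* muscle 5, and the summed fibroblast and macrophage markers given above were higher in *FRAIL1* muscles too; their part in these levels was not tested.

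As a description, the genes whose log2 CPM followed that of *Vegfa* most closely over the 12 muscles were *Mgst3* (Pearson r = 0.973), *Zadh2* (0.973) and *Isca1* (0.970), out of 15502 genes. The 12 points hold both groups and share the library scaling. Each of the 3 was lower in *FRAIL1* muscles, with log2 fold changes of -0.35, -0.29 and -0.35, and only *Zadh2* passed the test (adjusted p = 0.0492, edgeR). By the same measure r was 0.921 for *Flt1*, 0.920 for *Epas1*, 0.915 for *Egln1*, 0.883 for *Tek*, 0.839 for *Kdr* and 0.745 for *Vegfb*.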

How the data were processed

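RNA from 12 TA muscles was sequenced after poly(A) selection. According to the submitters' processing notes and the study's methods, the authors trimmed paired-end reads with Trimmomatic, mapped them to mm10 with STAR 2.7.8a and counted reads that mapped uniquely to a gene with featureCounts 2.0.1. The deposited values are whole counts per gene without normalization. Strand handling is not given in the sources used here.

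Gene IDs were matched to symbols with the RefSeq gene table (25275 of 27179, the rest holding 0.280% of counts), which also gave the positions of genes. Strands, exon lengths and exon overlaps are those of GENCODE vM21 on GRCm38. Within a group, no library was a copy of another (chi-square per degree of freedom at least 14.5). Genes were filtered with filterByExpr, normalized by TMM. Groups were tested in edgeR 4.0.16 (R 4.3.3) by quasi-likelihood with robust estimation, without a term for the mouse, with Benjamini-Hochberg adjustment over 15502 genes. The depth limits mainly genes near 1 CPM, and errors are the spread over 6 muscles per group. Ratios of CPM were compared with exact permutation tests in scipy 1.17.1. Correlations with *Vegfa* used log2(CPM + 0.1).

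The labels state that each mouse gave 1 muscle to each group, and muscles of 1 number were taken as those of 1 mouse. Deviations from the group means correlated at 0.272, 0.170, 0.302, 0.280, 0.0599 and 0.196 for numbers 1 to 6 (mean 0.213, against -0.0427 between different numbers), so the pairing of the muscles numbered 5 is the least certain. On simulated counts with 195 of 15365 genes changed by 1 on the log2 scale, the test recovered 82.1% without and 78.5% with the block, with 7 calls of unchanged genes each. The simulated counts held no differences between mice, so they cannot show what the block gains in paired muscles. Smaller changes, such as that of *Vegfa*, were not simulated.

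The 10 genes and all lists were chosen with earlier results of these data known. Besides the 10, the text names listed genes with an adjusted p under 0.05 with or without the block, up to 3 others per list by mean CPM, and the 3 genes most correlated with *Vegfa*. *Arnt2*, *Vhl*, *Car9*, *Kdm3a*, *Cd34* and *Mylpf* were named after their values were seen. Alternatives were the block, other scalings (DESeq2 size factors, upper quartile, TMM leaving out the top 20 genes by count), testing without a filter, requiring 10 counts in each muscle, DESeq2 1.42.0 with and without the block, limma 3.58.1 voom, both muscles numbered 5 left out, and each muscle left out.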

Additional observations from a re-analysis of the deposited data

Results flagged for a closer look

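The *Apln* level of *FRAIL1* muscle 5, 14.7 CPM, was far from the other 5 *FRAIL1* muscles, of which the next was 6.69 CPM, and the gap was 0.772 of the group's range. The *Hif1a* level of the same muscle, 36.8 CPM, was likewise far above the next, 27.4 CPM, with a gap of 0.741 of the range. Both exceed Dixon's critical value of 0.625 for 6 samples. Chance flags about 1 in 20 groups, and 26 groups of values were examined.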

How the results depend on the processing

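The number of genes called depended on the fit: 974 were called as reported, 2186 with the replicate block, 2305 with the replicate block and without both muscles numbered 5, 1836 with limma voom, 2232 with DESeq2 and 2898 with DESeq2 and the block. Leaving out single muscles gave 364 (without *FRAIL1* muscle 1) to 2110 (without *FRAIL1* muscle 3), 1579 without *FRAIL1* muscle 2, and 400 to 601 without any other single muscle except *FRAIL1* muscle 5, whose omission left the count within 1.5 times. Of the 10 genes, 1 was called (*Vegfa*) with the replicate block, with DESeq2 and with limma voom, and 3 (*Vegfa*, *Apln* and *Epas1*) with DESeq2 and the block and with the block without both muscles numbered 5. Leaving out single muscles gave 0 to 1, the 1 being *Vegfa* without *FRAIL1* muscle 3. Calls that single genes gained without *FRAIL1* muscle 2 or 3 are to be read against the larger number of genes called there. The cause of the differences between fits was not tested.

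Genes near 0 changed sign. *Vegfc* ranged from -0.066 to 0.067 and *Vegfd* from -0.027 to 0.050 (log2) as single muscles were left out, *Vegfc* being above 0 without Control muscle 2 or 4 or *FRAIL1* muscle 4, and *Vegfd* below 0 without Control muscle 3 or *FRAIL1* muscle 2 or 6. *Pgf* was -0.0044 with limma voom, -0.056 without both muscles numbered 5 and -0.041 with the block as well. The log2 ratio of *Angpt2* to *Angpt1* was 0.048 without both muscles numbered 5 and -0.14 to 0.11 without single muscles, and that of *Vegfa* to *Kdr* was -0.0054 to 0.070. *Vegfa*, *Vegfb*, *Angpt1*, *Angpt2*, *Apln* and *Epas1* kept their direction in all 23 alternatives, *Hif1a* stood near 0 without both muscles numbered 5 (0.00079, or 0.0058 with the block), and adjusted p ranged from 0.00868 to 0.128 for *Vegfa*, 0.00557 to 0.283 for *Apln* and 0.0132 to 0.265 for *Epas1*. Among other genes named, *Tek* and *Vash2* were called in all 23. Depth limits *Pgf*, *Vegfc* and other genes near 1 CPM most.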

Other observations

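Of 6 genes of endothelial tip cells, the leading cells of a vessel sprout, 5 were tested and 1 passed. *Cxcr4*, a chemokine receptor that leukocytes carry as well, was 7.51 ± 0.929 CPM in Control and 11.4 ± 3.44 in *FRAIL1* muscles (SD, n = 6 each), a log2 fold change of 0.60 (adjusted p = 0.0484, edgeR), higher in 6 of 6 mice. Its call was kept only without *FRAIL1* muscle 2, 3 or 5 when single muscles were left out (adjusted p otherwise up to 0.0989). *Dll4*, the Notch ligand of tip cells, had a log2 fold change of -0.16, *Unc5b* of 0.06 (-0.03 without *FRAIL1* muscle 5) and *Plaur* of 0.50, and these did not pass.

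Of 7 markers of pericytes and smooth muscle, the cells that wrap vessels and respond to angiopoietin signaling, 0 passed (edgeR, 3 at an unadjusted p-value under 0.05), and 2 passed with the mouse as a block. *Rgs5* and *Kcnj8*, both pericyte genes, had log2 fold changes without the block of -0.44 and -0.47 (adjusted p = 0.0023 and 0.0273 with the block, 0.130 and 0.0520 without, edgeR) and were lower in 6 of 6 mice. *Kcnj8* also passed without the block when *FRAIL1* muscle 2 or 3 was left out. *Abcc9*, *Acta2* and *Myh11* had log2 fold changes of -0.15, 0.22 and -0.29, the last -0.18 without *FRAIL1* muscle 5. Of 3 lymphatic markers, 0 passed (edgeR, 1 at an unadjusted p-value under 0.05; *Prox1* 0.61, *Lyve1* -0.12, *Pdpn* 0.42), beside *Vegfc* and *Vegfd* near 0.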
